A study of Mus musculus with 23 samples.

Results

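The tubulin genes described here are 10 genes of the mouse table: Tubb3, Tubb2a, Tubb2b, Tubb4b, Tubb5 and Tubb6 for beta-tubulin, and Tuba1a, Tuba1b, Tuba1c and Tuba4a for alpha-tubulin. They were taken by symbol from 47643 genes, and all 10 were found. They were chosen by their measured log2 fold changes and calls with each guide against control, which were known when the genes were listed, so what each guide did to them is given below as a description, with no test. RNA was sequenced from B16F10 cells, a mouse melanoma line, in 3 sample types. These were whole (bulk) tumors, tumor cells purified from tumors by magnetic depletion of stromal cells (sorted cells), and cells in culture. Each type held 2 libraries of control cells (genotype WT), 2 of sg492 cells and 2 of sg495 cells (both labeled NR2F6 KO), 18 libraries in all. Per the study's methods, each guide RNA was tagged with a dye and transfected together with Cas9 protein, and dye-positive cells were sorted a day later; cloning of single cells is not described. Mice given B16F10 cells under the skin were 6- to 8-week-old C57BL/6 males, and the day on which tumors were taken for RNA is not given in the sources used here. All groups share the B16F10 background, and the controls are labeled WT. A further 5 libraries (genotype WT) are labeled IgG_Control (2 libraries) or anti-PD1 (3 libraries); the labels do not say whether these were bulk tumors, sorted cells or cultured cells.

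Tubulin is a dimer of 1 alpha and 1 beta subunit, and dimers polymerize into microtubules, which carry cargo, hold cell shape and build the mitotic spindle. Mammals encode several alpha and beta isotypes that differ mostly in their C-terminal tails. Tubb3, Tubb2a, Tubb2b, Tuba1a and Tuba4a are known for high expression in the nervous system and are called neural isotypes here, whereas Tubb4b, Tubb5, Tubb6, Tuba1b and Tuba1c are expressed in many tissues and are called general isotypes. Melanocytes come from the neural crest, and melanoma cells are known to express Tubb3.

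Expression is in TPM, a transcript abundance that the authors scaled for gene length and library, so levels of different genes can be set side by side. The labels give 23000000 to 31000000 reads; the depth of each library cannot be read from TPM. Nr2f6 (chr8:71374123-71381960), the gene that the guides target, was read in every library as a check. In bulk tumors it was at 25.8 and 25.2 TPM in control, 22.3 and 23.3 with sg492, and 17.2 and 15.8 with sg495. In sorted cells the values were 20.3 and 17.7 in control, 19.8 and 25.7 with sg492, and 10.6 and 12.2 with sg495. In cultured cells they were 31.9 and 32.9 in control, 26.6 and 31.5 with sg492, and 18.6 and 22.4 with sg495. The sg495 libraries lay below control in each type, whereas the sorted libraries labeled sg492 overlapped control. Per the study's methods, the knockout was checked by immunoblotting and by sequencing the targeted regions. The RNA values given here do not test it. Markers of melanocytes (6 genes, Mitf to Mlana) summed to between 14595 and 17580 TPM over the 18 libraries. Markers of leukocytes (8 genes) summed to 292 to 603 TPM in bulk tumors, 4.15 to 12.7 in sorted cells and 2.20 to 6.17 in cultured cells, and 5 fibroblast markers to 329 to 936, 1.19 to 4.23 and 1.53 to 3.79. In bulk tumors, fewer cells of a type and less RNA per cell cannot be told apart. Markers of neurons (10 genes) summed to at most 1.23 TPM in any of the 18 libraries, with Nefm and Ina at 0 in all of them, so transcripts that define neurons were near 0 in libraries where Tubb3 was at 41.1 TPM or more.

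Some of these genes are near-copies of each other, which bears on how their reads were divided. Tubb2a (chr13:34074274-34078007) and Tubb2b (chr13:34126748-34130466) lie 48.7 kb apart and their longest coding sequences are 96.5% identical. Tuba1b (chr15:98931425-98934565), Tuba1a (chr15:98949837-98953703) and Tuba1c (chr15:99029891-99038110) lie within 106.7 kb, and their coding sequences are 97.1% to 98.3% identical. Of the stretches of 75 bases (the read length) in the annotated transcripts of a gene, 40.2% of those in Tubb2a, 27.5% in Tubb2b, 45.1% in Tuba1a, 52.6% in Tuba1b and 48.9% in Tuba1c also occur in another of the 10 genes. Counting all other genes, the processed pseudogenes Gm17383 and Gm14150 included, the shares are 43.2%, 30.2%, 68.2%, 64.3% and 48.9%. The split between these paralogs is uncertain for that reason, and their sums, which remove the division among the paralogs but not that with pseudogenes, are given beside them. Tubb3 (chr8:123411424-123422015), Tuba4a (chr1:75214228-75219865), Tubb5 (chr17:35833921-35838306) and Tubb6 share no such stretch with any other gene, and Tubb4b (chr2:25222160-25224702) shares 27.7% of its own with genes outside the 10. Coordinates are from GENCODE M21 on GRCm38, the mm10 build that the authors used, and all 10 genes are protein-coding.

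Promoters from RefSeq (GRCm38.p6, 250 bases before to 50 after a gene's annotated start) were found for 8 of the 10 genes; Tubb2b and Tubb6 had no entry. Shown here are those of Tubb3, whose level was lower with sg495 in all 3 sample types, and of the neighbors Tuba1a and Tuba1b, which parted with sg495 in culture. Capitals mark the letters TATAA, searched on both strands.
Tubb3 (chr8:123411303-123411602, plus strand): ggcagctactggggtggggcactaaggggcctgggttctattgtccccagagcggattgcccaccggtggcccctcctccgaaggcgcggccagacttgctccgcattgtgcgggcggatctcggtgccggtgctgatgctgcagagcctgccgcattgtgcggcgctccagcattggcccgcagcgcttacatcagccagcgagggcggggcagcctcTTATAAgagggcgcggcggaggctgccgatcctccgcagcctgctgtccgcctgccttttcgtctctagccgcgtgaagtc
Tuba1a (chr15:98953452-98953751, minus strand): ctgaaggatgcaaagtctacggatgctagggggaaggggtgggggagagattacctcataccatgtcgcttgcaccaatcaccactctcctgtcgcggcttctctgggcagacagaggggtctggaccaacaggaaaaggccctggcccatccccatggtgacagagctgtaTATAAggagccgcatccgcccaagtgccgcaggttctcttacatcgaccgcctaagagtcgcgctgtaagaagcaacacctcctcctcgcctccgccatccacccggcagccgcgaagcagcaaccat
Tuba1b (chr15:98934341-98934640, minus strand): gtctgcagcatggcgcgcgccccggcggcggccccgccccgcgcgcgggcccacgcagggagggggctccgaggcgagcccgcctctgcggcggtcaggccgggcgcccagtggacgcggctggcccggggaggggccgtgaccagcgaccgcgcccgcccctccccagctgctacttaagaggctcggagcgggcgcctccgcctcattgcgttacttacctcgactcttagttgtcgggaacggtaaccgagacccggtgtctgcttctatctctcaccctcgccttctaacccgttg
The match of Tubb3 lies 30 bases before the start and reads as TTATAA on both strands, so the 2 matches overlap, and that of Tuba1a lies 78 bases before the start that RefSeq gives. Tuba1b, the highest of the 10 genes, has no match in the window. Tubb2a also has a match 29 bases before its start, and Tuba4a and Tubb4b have one at the start or in the 50 bases after it. Tubb5 and Tuba1c have none. TATAA is found in 24.9% of 32851 promoters of this length. The letters AGGTCA, a half-site bound by many nuclear receptors, are in 16.3% of those promoters and in 0 of the 8. The letters CCAAT are in 37.4% of promoters and in those of Tubb4b (5 matches), Tubb5 (2), Tubb3, Tuba1a and Tuba1c (1 each). CACGTG is in 7.15% and, among the 8, in the promoter of Tubb5 alone. These are matches of letters, not sites shown to be bound.

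The tubulins spanned a wide range of levels, and their order was much the same in the 3 sample types. Tuba1b, a general alpha isotype, was highest in every library of the 3 types, with a median of 1692 TPM in bulk tumors, 1385 in sorted cells and 2769 in cultured cells. In the control bulk tumors it ranked 85 among the 47643 genes, and in cultured controls 34. Tubb2b was lowest, with medians of 3.50, 2.04 and 0.565 TPM. In bulk tumors the order below Tuba1b was Tubb5, Tuba1a, Tubb4b, Tuba1c, Tuba4a, Tubb3, Tubb6, Tubb2a and Tubb2b, by mean TPM. Of these neighbors, Tubb5 and Tuba1a overlapped over the 6 libraries, as did Tubb3 and Tubb6, and the others did not. In sorted cells Tuba1a stood above Tubb5 with no overlap, and Tubb3 and Tubb6 again overlapped. In cultured cells Tubb3 moved above Tuba4a and no longer overlapped Tubb6. Its range of 164 to 316 TPM overlapped those of Tuba1c (256 to 306) and of Tuba4a (146 to 165). Together the 10 genes took 0.381% to 0.412% of all TPM in bulk tumors, 0.294% to 0.355% in sorted cells and 0.608% to 0.697% in cultured cells, ranges that do not overlap.

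**Figure D1:**
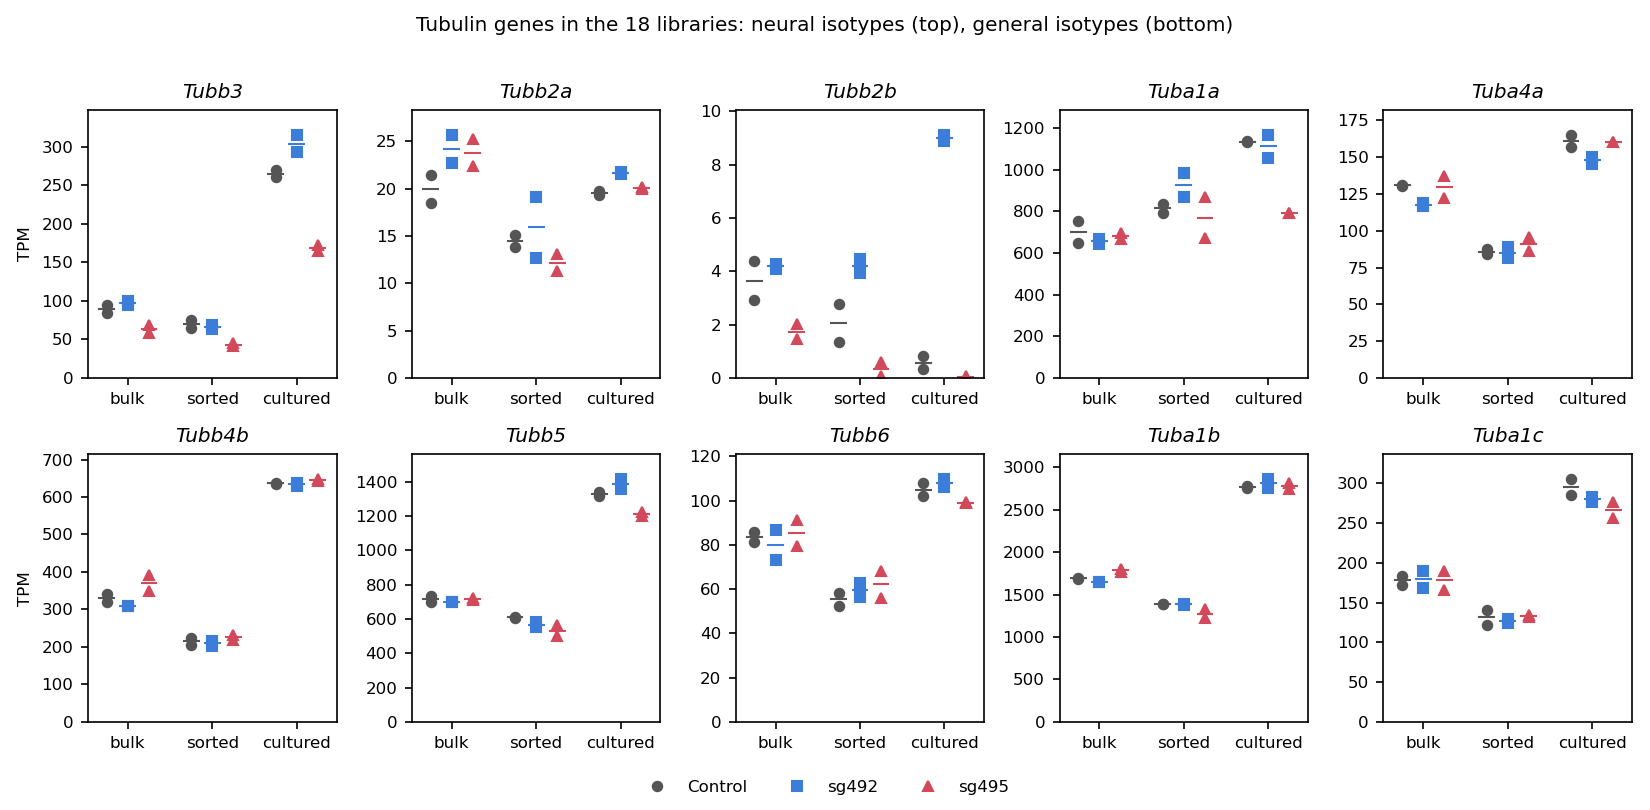
TPM of each tubulin gene (vertical axis, linear from 0, with its own scale in each panel) in the 18 libraries, with neural isotypes in the upper row and general ones in the lower. Points are libraries, short lines are means of 2 libraries, and colors and shapes mark control, sg492 and sg495; cultured cells stand highest for 8 of the 10 genes by median, and Tubb2a and Tubb2b do not follow.

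The first question was how the tubulins differ between cells in tumors, cells taken from tumors and cells in culture. In cultured cells 7 of the 10 genes were higher than in sorted cells, among them all 5 general isotypes and, of the neural ones, Tubb3 and Tuba4a. A call here needs a limma p of less than 0.05 after adjustment and at least a 1.5-fold change; over all 13152 genes tested 23.6% were called in either direction and 8.99% as higher. The median of the 10 genes was 0.94 on the log2 scale, against 0.0025 for all genes tested. These differences come from 18 libraries with 1 mean for each of 9 groups, and p-values measure the spread between libraries, since no source used here says that each came from its own mouse or culture. Sorted cells had been digested with collagenase and depleted of stromal cells, so sample type and preparation cannot be told apart.

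Tubb3, the beta isotype typical of neurons, had the largest estimates of the 10 genes in both comparisons with cultured cells. Its libraries lay between 41.1 and 74.4 TPM in sorted cells (median 64.0), between 58.8 and 99.5 in bulk tumors (median 89.1) and between 164 and 316 in cultured cells (median 265). Every cultured library lay above every library of the other types. The difference on the log2(TPM + 1) scale was 2.02 ± 0.05 (SE) for cultured minus sorted cells (limma, adjusted p = 2.06e-11) and 1.53 ± 0.05 for cultured cells minus bulk tumors (limma, adjusted p = 8.8e-11). For bulk tumors minus sorted cells it was 0.48 ± 0.05, with an adjusted p of 8.49e-06 in limma but a fold under 1.5.

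The general beta isotypes were all called higher in cultured than in sorted cells. Tubb4b, the beta subunit common in cilia and in many other cells, lay between 203 and 233 TPM in sorted cells (median 217), between 309.7 and 392 in bulk tumors (median 330.5) and between 629.8 and 649 in cultured cells (median 637). Its 3 ranges do not overlap, and it was called higher in cultured than in sorted cells by 1.56 ± 0.04 (limma, adjusted p = 1.14e-11) and in bulk tumors than in sorted cells by 0.63 ± 0.04 (limma, adjusted p = 1.94e-08). Tubb5, the main beta isotype of most dividing cells, had medians of 573, 705 and 1329 TPM in sorted cells, bulk tumors and cultured cells, a difference of 1.20 ± 0.03 for cultured minus sorted (limma, adjusted p = 2.85e-11) and 0.88 ± 0.03 for cultured minus bulk (limma, adjusted p = 1.66e-10). Tubb6 (chr18:67390717-67402749), a less abundant beta isotype, had medians of 57.5, 83.5 and 104 TPM. It was higher in cultured than in sorted cells by 0.81 ± 0.06 (limma, adjusted p = 1.48e-07), whereas its excess over bulk tumors, 0.32 ± 0.06, stayed under the fold of 1.5.

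Among the alpha isotypes, both general ones were called higher in cultured cells than in either other type. Tuba1b was higher in cultured than in sorted cells by 1.04 ± 0.03 (limma, adjusted p = 1.92e-11), and Tuba1c, with medians of 131 TPM in sorted and 279.8 in cultured cells, by 1.10 ± 0.05 (limma, adjusted p = 1.41e-09). Both were also higher in cultured cells than in bulk tumors, by 0.71 ± 0.03 and 0.65 ± 0.05. Tuba4a, which encodes an alpha-tubulin abundant in neurons, muscle and platelets, lay between 81.1 and 95.9 TPM in sorted cells and between 146 and 165 in cultured cells. It was called higher in culture than in sorted cells, by 0.84 ± 0.04 (limma, adjusted p = 2.31e-09).

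Tuba1a did not follow its neighbors. The main alpha-tubulin of developing neurons, it lay between 670.5 and 986 TPM in sorted cells (median 850.4), between 644 and 753 in bulk tumors (median 669) and between 790.4 and 1169 in cultured cells (median 1094). The ranges of sorted and cultured cells overlap, and the difference was 0.27 ± 0.06, under the fold of 1.5 (limma, adjusted p = 0.00213). It was the only one of the 10 genes with a lower estimate in bulk tumors than in sorted cells, at −0.29 ± 0.06, again under that fold (limma, adjusted p = 0.00182). Tuba1a thus made up a mean of 36.0% ± 2.22 (SD, n = 6) of the summed TPM of Tuba1a, Tuba1b and Tuba1c in sorted cells, 26.5% ± 1.22 in bulk tumors and 24.7% ± 3.20 in cultured cells. The sum of the 3 paralogs was higher in cultured than in sorted cells by 0.82 ± 0.04 (limma, adjusted p = 1.45e-09).

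The Tubb2 pair differed in another way. Tubb2a, a beta isotype of neurons, had medians of 13.5 TPM in sorted cells, 22.5 in bulk tumors and 20.1 in cultured cells. It was called higher in bulk tumors than in sorted cells, by 0.65 ± 0.09 (limma, adjusted p = 4.77e-05), a call that ends with quantile normalization (0.58), with control libraries alone (0.44) and without the second sorted sg492 library (0.56). Tubb2b, prominent in migrating and developing neurons, was called lower in cultured cells than in bulk tumors, with a difference of −0.67 ± 0.15 (limma, adjusted p = 0.00208), and with quantile normalization the difference was −0.0018. Its cultured libraries were 0.81 and 0.32 TPM in control, 9.13 and 8.90 with sg492 and 0.06 and 0 with sg495, so the type's mean rests on the sg492 pair. Without the sg492 libraries Tubb2b was also called lower in cultured than in sorted cells (−0.64, against −0.11 with them). The sum of Tubb2a and Tubb2b was higher in bulk tumors than in sorted cells by 0.65 ± 0.08 (limma, adjusted p = 2.18e-05).

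**Figure D2:**
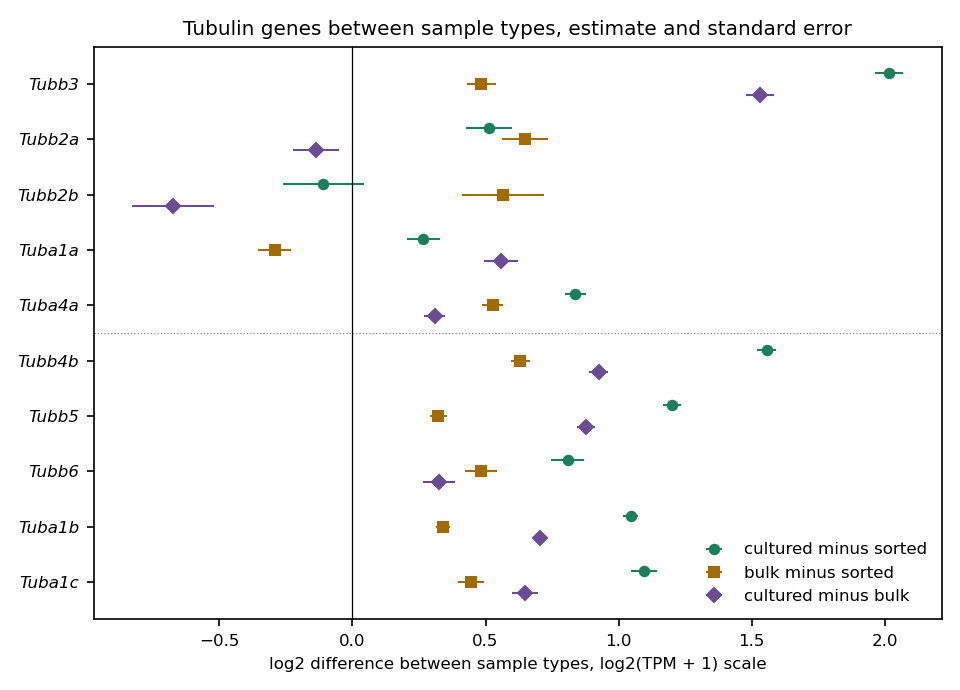
Difference between sample types for each tubulin gene (horizontal axis, log2(TPM + 1) scale; vertical axis, genes, neural isotypes above the dotted line and general ones below), as estimates with standard errors from 18 libraries. The cultured minus sorted estimates of the 5 general isotypes lie between 0.81 and 1.56, whereas those of the 5 neural isotypes run from −0.11 for Tubb2b to 2.02 for Tubb3.

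Between bulk tumors and sorted cells 2 of the 10 genes were called, both higher in bulk tumors, where 9.26% of all genes were called higher and 13.6% in either direction. Between cultured cells and bulk tumors 5 were called higher (Tubb3, Tubb4b, Tubb5, Tuba1b and Tuba1c) and Tubb2b lower, against 19.8% of all genes called, 3.95% higher and 15.8% lower. The balance of the whole table depends on scaling: cultured minus bulk gave 520 genes higher and 2079 lower, and with quantile normalization 1711 and 1314. For bulk minus sorted the split was 1218 and 567, and with quantile normalization 946 and 1384, and for cultured minus sorted 1182 and 1925, then 1356 and 1472. The 7 tubulins called for cultured minus sorted became 8 without the sg492 libraries and 8 with control libraries alone, Tubb2b as lower being the addition in each.

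Genes that mark dividing cells were also higher in cultured cells. Cdk1, Mki67, Ccnb1 and Top2a summed to 541 to 669 TPM in sorted cells, 765 to 813 in bulk tumors and 1047 to 1188 in cultured cells. All 4 were called higher in cultured than in sorted cells (1.10, 1.10, 0.97 and 0.60), beside 8.99% of all genes. Between cultured cells and bulk tumors 2 of the 4 were called (Cdk1 and Ccnb1, higher in culture), beside 3.95% of genes called higher. Between bulk tumors and sorted cells 0 of 4 were called by limma, with a median of 0.40, beside 13.6% of genes called in either direction. These counts are given as a description. The part of the 4 genes in the difference of the tubulins was not tested. Leukocyte, fibroblast and endothelial markers, by contrast, were higher in bulk tumors. All 12 that could be tested of the 16 were called above sorted cells, beside 9.26% of all genes called higher. Most of them passed the filter of a mean of 1 TPM through the bulk libraries and so had to be higher there. Nothing is read from that count. The part of these markers in the bulk minus sorted values of the tubulins was not tested. The neuron markers were too low for a test in any comparison (0 of 10 tested).

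Proteins that fold, modify and bind tubulin were read beside the isotypes, from lists chosen with earlier results of these data known. Over all genes, 23.6% were called for cultured minus sorted cells, 8.99% of them all as higher. For bulk minus sorted cells 13.6% were called, and for cultured cells minus bulk tumors 19.8%. The counts below are given beside these shares, and nothing is read from them. Of 10 other tubulin genes, 4 could be tested, and 2 were higher in cultured than in sorted cells: Tubd1 (1.04 ± 0.10), a delta-tubulin of centrioles, and Tubg1 (0.85 ± 0.03), the gamma-tubulin that nucleates microtubules. Of 20 genes for the chaperonin CCT, prefoldin and tubulin cofactors, none was called higher and 1 lower, the cofactor Tbce (−0.66 ± 0.09), with a median of 0.25. Of 15 genes for enzymes that modify tubulin, 13 were tested. The polyglutamylase Ttll7 was higher (0.59 ± 0.13) and the deglutamylase Agbl5 lower (−1.10 ± 0.09) in cultured than in sorted cells. Among 20 microtubule-binding proteins, 15 were tested and 5 were higher, namely the structural proteins Map1a (1.21 ± 0.13) and Map6 (0.70 ± 0.07), the plus-end proteins Mapre2 (0.76 ± 0.06) and Mapre1 (0.65 ± 0.05), and the microtubule polymerase Ckap5 (0.63 ± 0.03); Map7, which recruits kinesin, was lower (−1.23 ± 0.10). Bulk minus sorted cells called 1 gene of these lists, Vash1, a tubulin detyrosinase (1.03 ± 0.11). Cultured cells minus bulk tumors called Tubg1 (0.60), Map1a (1.03), Mapre1 (0.69), Ttll7 (0.80) and the tau gene Mapt (0.65) as higher and Vash1 (−0.97), Map7 (−0.98) and Agbl5 (−0.65) as lower.

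The second question was what each guide did to the tubulins, given here as values only. With sg495, Tubb3 was lower in all 3 sample types. In bulk tumors its values were 95.0 and 83.8 TPM in control and 68.3 and 58.8 with sg495. In sorted cells they were 74.4 and 65.0 in control and 41.1 and 45.0 with sg495. In cultured cells they were 269 and 260.4 in control and 164 and 173 with sg495. Both sg495 libraries lay below both controls in each type, with log2 fold changes of −0.49 ± 0.10, −0.68 ± 0.10 and −0.65 ± 0.05 (SE). In bulk tumors the make-up differed by guide as well: leukocyte markers summed to 292 and 373 TPM in control, 420.1 to 505 with sg492 and 552 to 603 with sg495, and fibroblast markers to 329 and 391, 448 to 536 and 538 to 936. Melanocyte markers overlapped, at 14782 to 15526 TPM in control and 14918 to 15829 with sg495. The part of the other cells in the bulk values was not tested. Genes that mark dividing cells summed to 649 and 669 TPM with control and to 541 and 561 with sg495 in sorted cells, and to 1122 and 1149 and to 1047 and 1079 in cultured cells. Their part in the value of Tubb3 was not tested either. With sg492 the values were 94.3 and 99.5 TPM in bulk tumors, 68.9 and 62.9 in sorted cells and 316 and 292 in cultured cells. The sg492 libraries overlapped control in both kinds of tumor sample and lay above it in culture, by 0.20 ± 0.05. Each guide was compared with the same 2 control libraries, so the values of the 2 guides are not separate.

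Tubb2b, at or under 9.13 TPM throughout, was lower with sg495 and higher with sg492 than control in sorted and cultured cells. In bulk tumors it was at 4.38 and 2.91 TPM in control, 4.28 and 4.10 with sg492 and 2.02 and 1.45 with sg495. In sorted cells it was at 2.76 and 1.33 in control, 3.94 and 4.45 with sg492 and 0.06 and 0.60 with sg495. The sg492 libraries in culture, given above, stood over 8 TPM where no control reached 1 TPM. The log2 fold changes with sg492 were 0.18 ± 0.22 in bulk tumors, 0.81 ± 0.35 in sorted cells and 2.70 ± 0.21 in cultured cells, and with sg495 −0.75 ± 0.22, −1.18 ± 0.35 and −0.59 ± 0.21. Adding 1 to the TPM understates such changes at low levels. In culture the gene passed the filter of a mean of 1 TPM through the sg492 libraries alone, and so it had to differ there. With sg492 in cultured cells Tubb2a did not move against it, at 19.3 and 19.7 TPM in control and 21.8 and 21.5 with sg492. The sum of the pair there was 20.1 and 20.0 TPM in control and 30.9 and 30.4 with sg492, a log2 fold change of 0.59 ± 0.06. With sg495 Tubb2a lay above both controls in bulk tumors (0.24 ± 0.12) and cultured cells (0.04 ± 0.06). In sorted cells it lay below them (−0.23 ± 0.20). The log2 fold changes of the sum with sg495 were 0.11 ± 0.12 in bulk tumors, −0.37 ± 0.18 in sorted cells and 0.006 ± 0.056 in cultured cells.

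Tuba1a was lower with sg495 in culture. It was at 1139 and 1132 TPM in control, 1169 and 1056 with sg492 and 794 and 790.4 with sg495, a log2 fold change of −0.52 ± 0.05 with sg495, under the fold of 1.5. In bulk tumors (753 and 646 in control, 697 and 668 with sg495) and in sorted cells (834 and 795 in control, 670.5 and 867 with sg495) the libraries overlapped. Tuba1b beside it showed 2776 and 2754 TPM in cultured control and 2743 and 2818 with sg495, which overlap. The share of Tuba1a among the 3 paralogs was thus 27.0% and 27.1% in cultured control and 20.9% and 20.3% with sg495, and the log2 fold change of the paralogs' sum was −0.13 ± 0.03.

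The other isotypes moved little with either guide. Tubb5 in culture was at 1340 and 1318 TPM in control, 1418 and 1358 with sg492 and 1202 and 1222 with sg495. The sg495 libraries lay below control there (−0.13 ± 0.03) and in sorted cells (−0.20 ± 0.08), and overlapped it in bulk tumors. Tubb4b with sg495 was at 392 and 349 TPM in bulk tumors against 320.4 and 341 in control (0.16 ± 0.07), with the 2 sets apart, and between 0.02 and 0.07 in sorted and cultured cells. Over both guides and the 3 types, the log2 fold changes of Tubb2a lay between −0.23 and 0.27, of Tuba4a between −0.15 and 0.08, of Tubb6 between −0.08 and 0.16, of Tuba1b between −0.12 and 0.08 and of Tuba1c between −0.15 and 0.03.

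**Figure D3:**
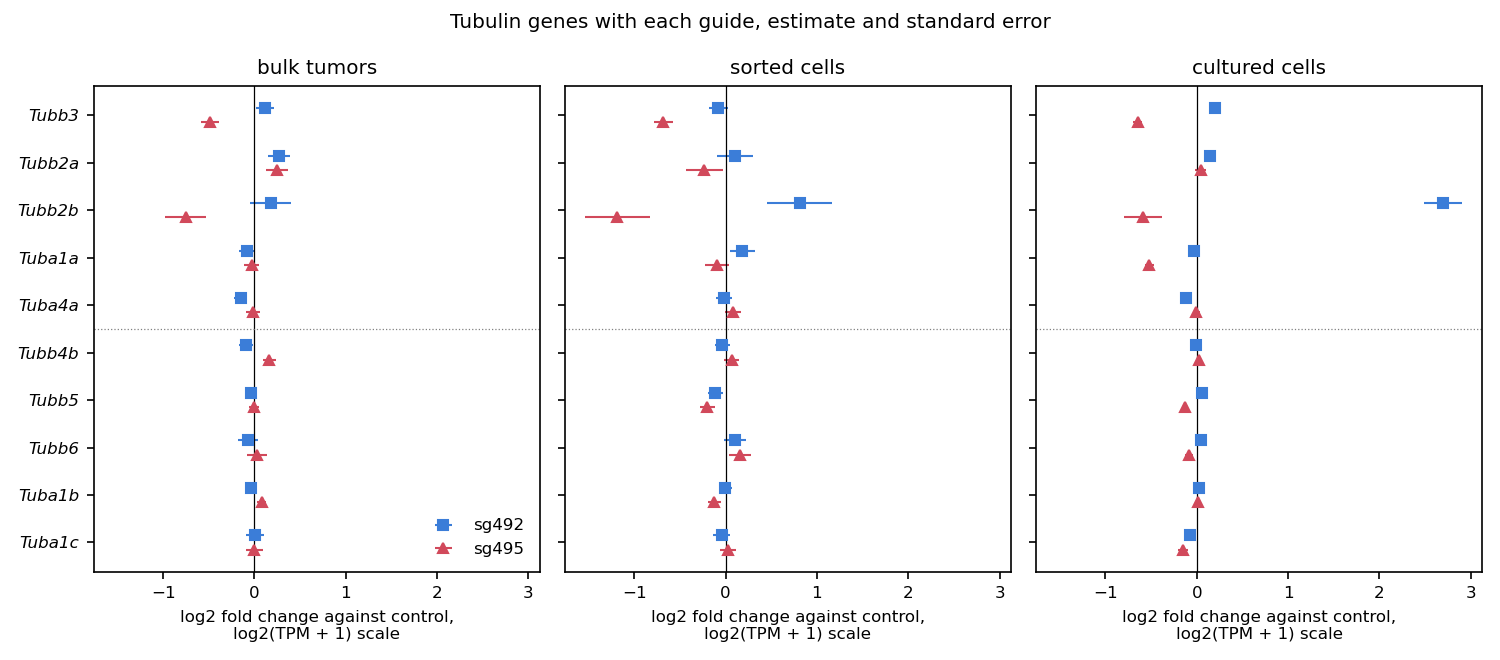
Log2 fold change of each tubulin gene against control (horizontal axis, log2(TPM + 1) scale; vertical axis, genes, neural isotypes above the dotted line), with standard errors, for sg492 (squares) and sg495 (triangles) in each sample type. Tubb3 with sg495 lies at −0.49, −0.68 and −0.65 in bulk tumors, sorted cells and cultured cells, and Tubb2b with sg492 at 2.70 in cultured cells.

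By the thresholds used for the sample types, 1 of the 10 genes was called with sg495 in sorted cells and 1 in cultured cells, Tubb3 in both as lower, beside 0.899% and 2.77% of all genes called in those comparisons and 0.295% and 2.03% called lower. With sg492 1 gene was called in cultured cells, Tubb2b as higher, beside 0.05% of genes called and 0.025% called higher. None was called by limma in bulk tumors with either guide or in sorted cells with sg492. The shares of all genes called there were 0% (bulk, sg492), 0.0293% (bulk, sg495) and 0.0388% (sorted, sg492). At an unadjusted limma p under 0.05 were 0 of 10 and 1132 of all 13639 genes in bulk tumors with sg492. With sg495 in bulk tumors 2 of 10 and 2135 of 13639 were, and with sg492 in sorted cells 0 of 10 and 920 of 12899. Since the genes were listed with these comparisons known, nothing is read from the counts. The calls of Tubb3 in sorted cells and of Tubb2b in cultured cells were lost whenever any 1 library of the fit was left out, and the shares of all genes depend on single libraries too. With sg495 the calls over all genes were 116 in sorted cells, 4 to 61 with 1 library left out (4 without sg495 replicate 1). In cultured cells they were 332, and 165 to 293 with 1 left out. In bulk tumors they were 4, and 0 to 190 with 1 left out (190 without control replicate 1), and 395 in the fit of all 18 libraries. With sg492 in bulk tumors they were 0, and 66 without control replicate 1. The libraries of 8 of the 10 genes did not overlap control with sg495 in culture, against 56.4% of all genes there. In sorted cells 5 of 10 did not (49.4% of all genes) and in bulk tumors 5 of 10 (45.9%). With sg492 the counts were 5 in bulk tumors (42.5% of all genes), 3 in sorted cells (40.3%) and 6 in cultured cells (41.5%).

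Tubb3 and Nr2f6 both lie on chromosome 8, 52.03 Mb apart, and with sg495 most values of that chromosome were lower, as that of Tubb3 was. With sg495 the median log2 fold change of the chromosome 8 genes was −0.25 in bulk tumors (717 genes), −0.34 in sorted cells (684 genes) and −0.33 in cultured cells (645 genes). Over all genes tested the sg495 medians were 0.06, −0.04 and −0.001. With sg492 the chromosome 8 medians were 0.03, 0.02 and 0.03. The difference of Tubb3 from the chromosome 8 medians with sg495 was −0.24, −0.34 and −0.32, and 7.81%, 5.26% and 6.67% of the chromosome 8 genes lay lower still. Of the protein-coding genes tested within 500 kb of Tubb3, 18 of 21 had an estimate below 0 with sg495 in bulk tumors, 18 of 20 in sorted cells and 18 of 18 in cultured cells. Over the whole chromosome 81.0%, 86.1% and 90.7% of the genes tested had an estimate below 0, so the neighbors lie near that share. The neighbors include Mc1r, the melanocortin receptor that drives pigment synthesis (−0.41, −0.38 and −0.70), the transcription factor gene Tcf25 (−0.42, −0.48 and −0.64) and Def8 (−0.31, −0.59 and −0.39). Others had estimates above 0, such as Acta1, the skeletal muscle actin (0.44 in bulk tumors and 1.17 in sorted cells), Dpep1 (0.38 in bulk tumors) and Dbndd1 (0.28 in sorted cells). The part of the chromosome in the value of Tubb3 was not tested. The 6 genes tested near Tubb2b, on chromosome 13, had a median of 0.07 with sg492 in cultured cells.

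**Figure D4:**
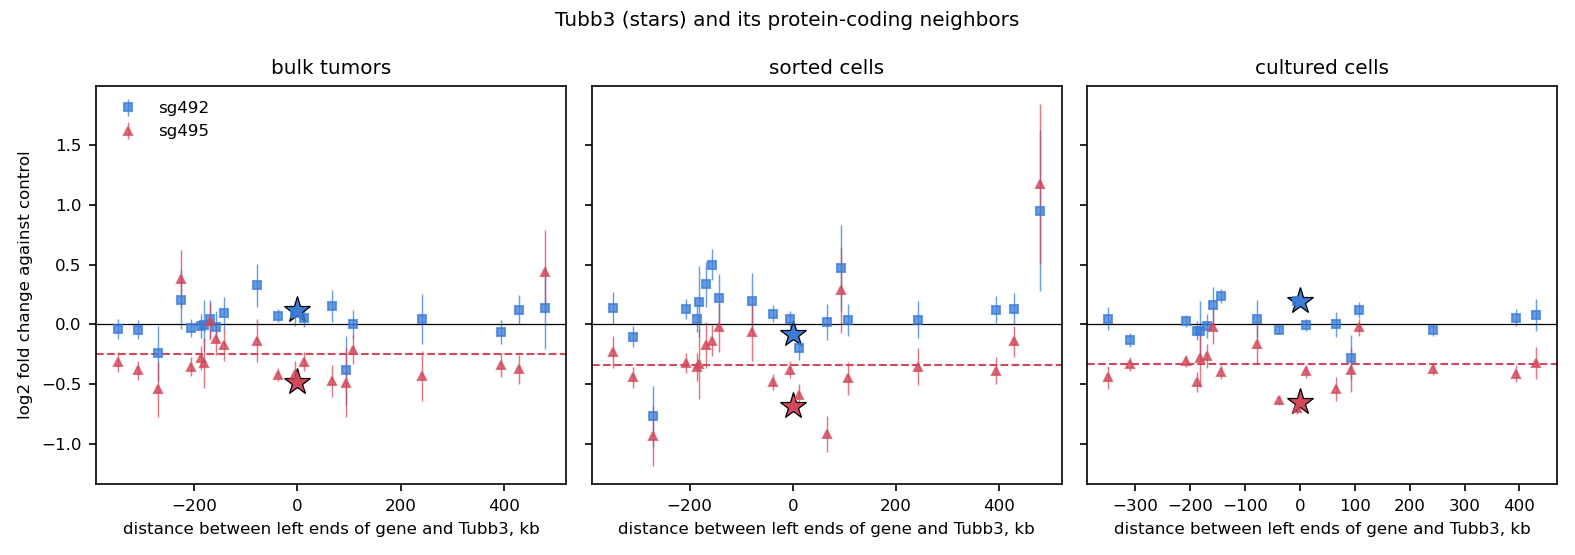
Log2 fold change against control (vertical axis, with standard errors) of Tubb3 (stars) and of the protein-coding genes within 500 kb, by distance from Tubb3 in kb (horizontal axis), with sg492 (squares) and sg495 (triangles). Dashed lines mark the sg495 medians of chromosome 8, −0.25, −0.34 and −0.33; with sg495 all 18 neighbors in cultured cells lie below 0.

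Across the 18 libraries, after the mean of each sample type was taken away, the 5 genes whose log2 values followed Tubb3 most closely of 11710 were Sin3b, Itgb1, Atmin, Fam149a and Vdac3 (Pearson's r from 0.963 to 0.978), all of them on chromosome 8. For Tubb2b they were Tspan7, Prkacb, Pianp, Fads6 and Cand2 (r from 0.893 to 0.928), none of them on chromosome 13. Among the tubulins, r was 0.795 between Tubb3 and Tubb2b, 0.69 between Tubb3 and Tuba1a, 0.718 between Tubb3 and Tubb5 and 0.713 between Tuba4a and Tubb4b. Between Tubb3 and Tubb4b it was −0.496, and between Tubb3 and Tuba4a −0.424. The 18 points share guides, libraries and the members' choice, so these values are descriptions.

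The make-up of the tubulin pool followed from these values. The neural beta isotypes together held 11.5% ± 2.20 (SD, n = 6) of the beta-tubulin TPM in cultured cells, 8.81% ± 1.51 in bulk tumors and 8.19% ± 1.49 in sorted cells. In cultured cells the share was 12.0% and 12.2% in control, 13.8% and 13.3% with sg492 and 8.67% and 8.92% with sg495. In sorted cells it was 9.32% and 8.48% in control, 9.68% and 8.98% with sg492 and 6.34% and 6.33% with sg495, and in bulk tumors 9.57% and 8.57%, 10.3% and 10.3%, and 7.21% and 6.90%. The sg495 libraries were lowest in each type. The summed TPM of the alpha isotypes was 2.61 ± 0.11 times that of the beta isotypes in sorted cells, 2.17 ± 0.03 times in bulk tumors and 1.83 ± 0.05 times in cultured cells (SD, n = 6), and the 3 ranges do not overlap.

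**Figure D5:**
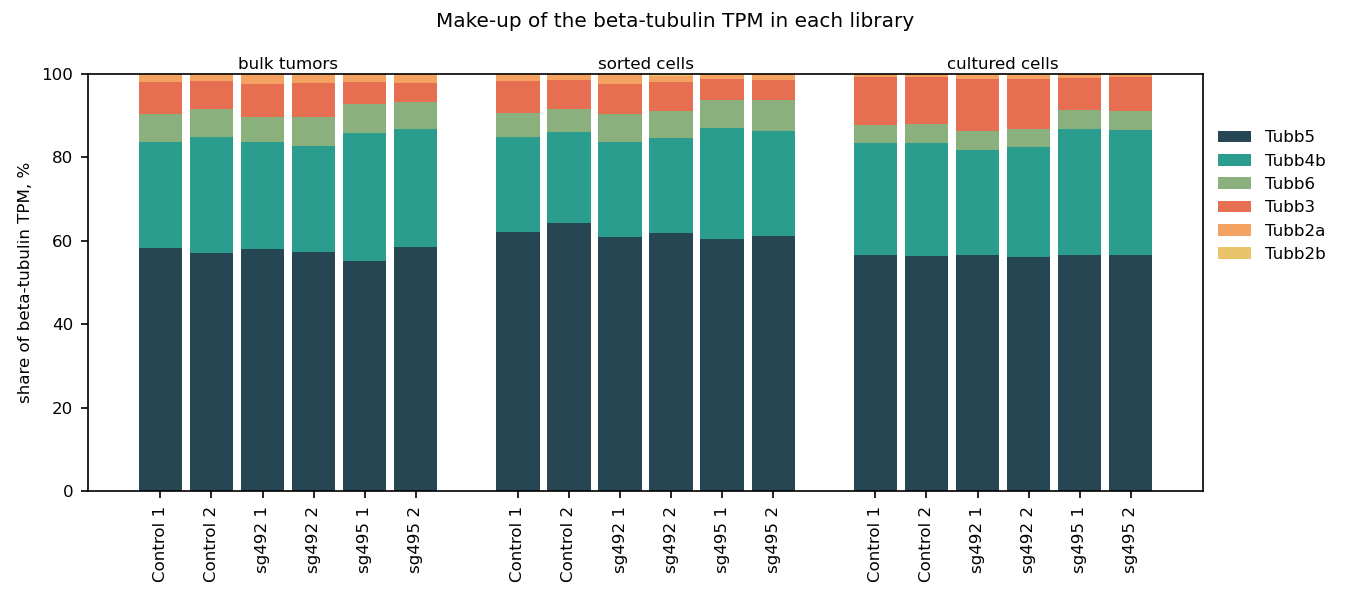
Share of each beta isotype in the summed beta-tubulin TPM (vertical axis, percent) in each of the 18 libraries (horizontal axis, by sample type, group and replicate number). Tubb5 makes up the largest part of every bar, and the neural isotypes at the top fill between 6.33% and 13.8%.

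Of the libraries that the listing did not use, anti-PD1 was compared with IgG_Control. None of the 10 genes was called (limma; 1 of 10 at an unadjusted p under 0.05, and 0% of 13418 genes called, with 964 at an unadjusted p under 0.05). The share of all genes depends on the fit: with replicate numbers as a block 514 genes were called (208 higher and 306 lower), and without IgG_Control replicate 1 19 were called, while 0 of the 10 tubulins was called in either. Tuba1a was at 248 and 166 TPM with IgG_Control and at 398, 342 and 323 with anti-PD1, a log2 difference of 0.79 ± 0.23 (limma, adjusted p = 0.608; 0.147 to 0.722 over the alternatives). All 3 anti-PD1 libraries lay above both IgG_Control libraries, and those of Tuba1c (133 and 132 TPM against 123, 129 and 103) lay below (−0.17 ± 0.20; limma, adjusted p = 0.756); over all genes 25.4% did not overlap. Melanocyte markers summed to 1634 and 3817 TPM with IgG_Control and to between 3218 and 4907 with anti-PD1, and leukocyte markers to 6583 and 7268 and to between 4803 and 6698. The part of this make-up in the value of Tuba1a was not tested. Tubb2a, at 92.6 and 78.2 TPM with IgG_Control and at 69.4, 80.4 and 58.1 with anti-PD1, stood above its 18 values in the other sample types, which reached 25.7, whereas Tubb3, at 20.0 to 24.7 TPM in the 5 libraries, stood below all of its own, the lowest of which was 41.1. Tubb2b lay between 0.77 and 2.71 TPM. The make-up of the 2 sets differed too: in the 18 libraries leukocyte markers summed to at most 603 TPM and melanocyte markers to at least 14595. The part of that make-up in the levels of Tubb2a and Tubb3 was not tested. How these 5 libraries were prepared is not in the labels, so the 2 sets are only set side by side.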

How the data were processed

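Poly(A) RNA of 23 libraries was sequenced as single reads of 75 bases from strand-marked libraries. The authors trimmed reads with cutadapt 2.3, aligned them to mm10 with STAR 2.7.0d and quantified Ensembl genes with RSEM 1.3.1, and deposited 1 table of TPM. RSEM divides reads shared between near-identical genes by estimate, so the split between tubulin paralogs depends on that step. TPM carry no counts, so the count test described by the authors was not repeated and no counting interval is given.

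TPM were transformed as log2(TPM + 1). Genes whose mean over the libraries of a fit reached 1 TPM were kept (all 10 tubulins in each fit), and limma 3.58.1 (R 4.3.3; lmFit, eBayes with trend) was fitted on the whole table. Guides were fitted within the 6 libraries of a sample type, sample types over 18 libraries with 9 group means, and anti-PD1 against IgG_Control over 5 libraries. P-values are 2-sided and adjusted by Benjamini-Hochberg over all genes of a comparison; a call needs an adjusted p below 0.05 and a fold of at least 1.5. The limma step was run on simulated data, where the only limit set was on the median error of the log2 fold changes.

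The tubulins, the split into neural and general isotypes and all gene lists were chosen with earlier results of these data known. Named are the 10 tubulins, Nr2f6, list genes called in a guide or anti-PD1 comparison, otherwise up to 4 per list with the largest called differences between sample types, and the 5 genes most like Tubb3 and Tubb2b; other called list genes, the marker genes that define cell types, and Mc1r, Tcf25, Def8, Acta1, Dpep1, Dbndd1, Gm17383 and Gm14150 were named after their values were seen. By that rule, Mbp was called higher with sg495 in sorted (1.32) and cultured cells (1.16), and Lyz2 in cultured cells (0.97). Positions, transcripts and coding sequences are from GENCODE M21 and promoters from RefSeq. Alternatives changed the pseudocount, filter, scaling, eBayes trend, fold threshold, replicate block, libraries of the fit and each library in turn.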

Additional observations from a re-analysis of the deposited data

Results flagged for a closer look

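For 3 tubulin genes, both libraries of a guide lay above both controls in 1 sample type and below both in another, and the difference between types was not tested. Tuba1b with sg495 lay above control in bulk tumors (0.0793 on the log2 scale) and below in sorted cells (−0.1222). Tubb2a with sg495 lay above control in bulk tumors (0.2429) and cultured cells (0.0431) and below in sorted cells (−0.2323). Tubb5 with sg492 lay above control in cultured cells (0.0622) and below in bulk tumors (−0.0386) and sorted cells (−0.1118). None of these values was called in limma, and between 40.3% and 56.4% of all genes had libraries that did not overlap control in a comparison. No group held 4 or more libraries, so no library was tested for standing apart from its group.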

How the results depend on the processing

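Over the alternatives, no log2 fold change that was called changed direction. As a description, since these values were among those that chose the genes, the log2 fold change of Tubb3 with sg495 ranged from −0.65 to −0.63 in cultured cells, −0.69 to −0.64 in sorted cells and −0.57 to −0.49 in bulk tumors over the settings that keep all libraries, except subtracting the chromosome 8 median, which gave −0.32, −0.34 and −0.24. The count of tubulins called with sg495 in sorted cells, 1, became 0 with a pseudocount of 0.1, no expression filter, median-of-ratios scaling, eBayes without trend, the replicate block or a fit of control and 1 guide, and 2 in the fit of all 18 libraries. That with sg492 in cultured cells, 1, became 0 with a pseudocount of 0.1, no filter, a minimum mean of 5 TPM (which leaves 9 genes, without Tubb2b), eBayes without trend, the replicate block or a fit of control and 1 guide. That with sg495 in cultured cells, 1, became 2 with a pseudocount of 0.1 or no fold threshold. Leaving out each library in turn gave 0 to 0 for the first 2 counts; the cause was not tested. For bulk minus sorted cells the count of 2 became 1 with quantile normalization and 10 with no fold threshold, which by construction admits smaller folds. The neural share without Tubb2a was 6.99% in bulk tumors and 6.66% in sorted cells, and Tuba1a with Tuba1c held 33.4%, 41.6% and 31.6% of the Tuba1 TPM in bulk tumors, sorted cells and cultured cells. Within a sample type, same-numbered libraries of control, sg492 and sg495 did not deviate together (r from −0.126 to 0.051). Pairing by number between sample types, or between IgG_Control and anti-PD1, was not examined, so it is not known. The replicate block left the counts of tubulins for sample types and for anti-PD1 as they were. It raised the calls over all genes for anti-PD1 minus IgG_Control from 0 to 514. With the replicate numbers swapped for sg492 in bulk tumors, a setting chosen after seeing the data, 0 tubulins were called with either guide in bulk tumors. Quantile normalization moved the median of all genes for cultured minus bulk from −0.02 to 0.11. With 2 libraries a group and an unknown depth per library, small differences of low genes such as Tubb2b cannot be resolved.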
